A study of Mus musculus with 6 samples.

Results

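The chemokine ligands and receptors of the mouse were followed in the hindlimb gastrocnemius (GAS) muscle of wildtype (WT) and Kvβ2 knockout (KO) mice. They were chosen by gene symbol, with earlier results of these data known. A gene was taken if its symbol joins Ccl, Cxcl, Ccr or Cxcr to a number and at most 1 further letter, or if it is *Cx3cl1* or *Cx3cr1*. The rule found 57 of the 37979 entries of the expression table, under 56 symbols, since *Ccl25* is listed under 2 identifiers. Of these entries, 39 are ligands and 18 are receptors.

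Chemokines are small secreted proteins, grouped by the spacing of their first cysteines, that draw leukocytes and progenitor cells along a gradient. Most signal through receptors that span the cell membrane repeatedly and couple to inhibitory G proteins, while atypical receptors take ligands up without that coupling. In muscle they are known as products of resident fibroblasts, vessels and macrophages, and they recruit monocytes and other leukocytes after injury.

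The question behind the sequencing was how gene expression in muscle differs when the potassium channel subunit Kvβ2, encoded by *Kcnab2*, is missing. RNA of 3 WT and 3 KO mice, 20 weeks of age and without treatment, was sequenced with 1 library per mouse, and the libraries of each genotype carry the replicate numbers 1, 7 and 8. KO mice were homozygous for a *Kcnab2* null allele and came, like the age-matched WT mice, from matings of carriers of 1 null allele, so the allele was not limited to muscle. Levels are FPKM, in which the fragments of a gene are scaled to the length of its transcripts and to the mapped fragments of the library.

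*Kcnab2* (ENSMUSG00000028931, chromosome 4, 152390742 to 152477871 of GRCm38, minus strand) was present in each WT library, where replicates 1, 7 and 8 held 0.233, 0.1 and 0.110 FPKM. Of the KO libraries only replicate 7 held any of it, 0.0151 FPKM, so every KO library lay under every WT library (two-sided exact permutation test, p = 0.1, the smallest possible for 3 against 3 libraries). The estimated depth was 19760000 to 20910000 fragments in WT and 14200000 to 19290000 in KO libraries, and 1 fragment on a transcript of 1 kilobase was worth 0.0478 to 0.0704 FPKM. The 7 myofibre markers summed to 12332 to 19786 FPKM in WT and 24788 to 27842 FPKM in KO muscle, without overlap. *Acta1* alone held 5029 to 13917 FPKM of the sum, while *Myh7* was at 0.0513 FPKM in WT replicate 8. By the limma test described below, 3 of the 7 were higher at an unadjusted p under 0.05 (15.3% of all genes tested), and none passed after adjustment. These were *Acta1*, *Ckm* and *Myh2*, with log2 fold changes of 0.83, 0.81 and 0.75. After correction for the GC content of genes they were at 0.36, 0.41 and 0.62. *Mb*, *Myh1*, *Myh7* and *Actn3* overlapped between the genotypes. An entry at exactly 0 is not always a measured absence here, since the fast muscle genes *Myh4*, *Atp2a1* and *Tnnt3* are listed at 0 in all 6 libraries.

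Of the 57 entries, 13 had a mean above 0.5 FPKM over the 6 libraries. These were the 10 ligands *Cxcl14*, *Ccl11*, *Cxcl12*, *Ccl25*, *Ccl27a*, *Ccl6*, *Ccl9*, *Ccl24*, *Cxcl16* and *Cxcl13* and the 3 receptors *Cxcr7*, *Cxcr4* and *Ccr2*. By family, 6 of 25 CC ligands, 4 of 13 CXC ligands, 1 of 10 CC receptors and 2 of 7 CXC receptors were above this level, and neither the CX3C ligand nor its receptor was. Only 3 of the 13 had a mean above 10 FPKM, 8 had one above 2 FPKM, and 5 lay between 0.5 and 2 FPKM. In 9 of them every library was above 0.5 FPKM, while *Ccl24*, *Ccr2*, *Cxcl16* and *Cxcl13* had at least 1 library under it.

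The genotypes were compared with limma on log2(FPKM + 0.1) for every gene whose mean reached 0.5 FPKM, 12334 in all, and p-values were adjusted by Benjamini-Hochberg. Each fold change is a difference on this log2 scale, KO minus WT, and the added 0.1 makes changes of low genes look smaller than they are. None of the 13 chemokine genes passed an adjusted p of 0.05 in this limma test, against 0.324% of all genes tested (0.251% higher and 0.073% lower in KO muscle). None had an unadjusted p under 0.05, against 26.2% of all genes (15.3% higher and 10.9% lower). In none did the KO libraries lie all above or all below the WT libraries, against 34.5% of all genes (18.3% higher and 16.2% lower).

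The limma-adjusted p of the 13 genes ran from 0.204 to 0.993. In value, 6 were higher and 7 lower in KO muscle, with log2 fold changes from -0.54 to 0.78. Their median was -0.07, beside 0.01 over all genes tested, and the median size without the sign was 0.26, beside 0.27. A missed threshold does not show equal levels. For 7 of the 13 the 95% interval of the difference lay within a 2-fold change in either direction, and for the other 6 it reached beyond 2-fold. In bulk muscle, fewer cells of a type and less RNA per cell cannot be told apart.

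**Figure D1:**
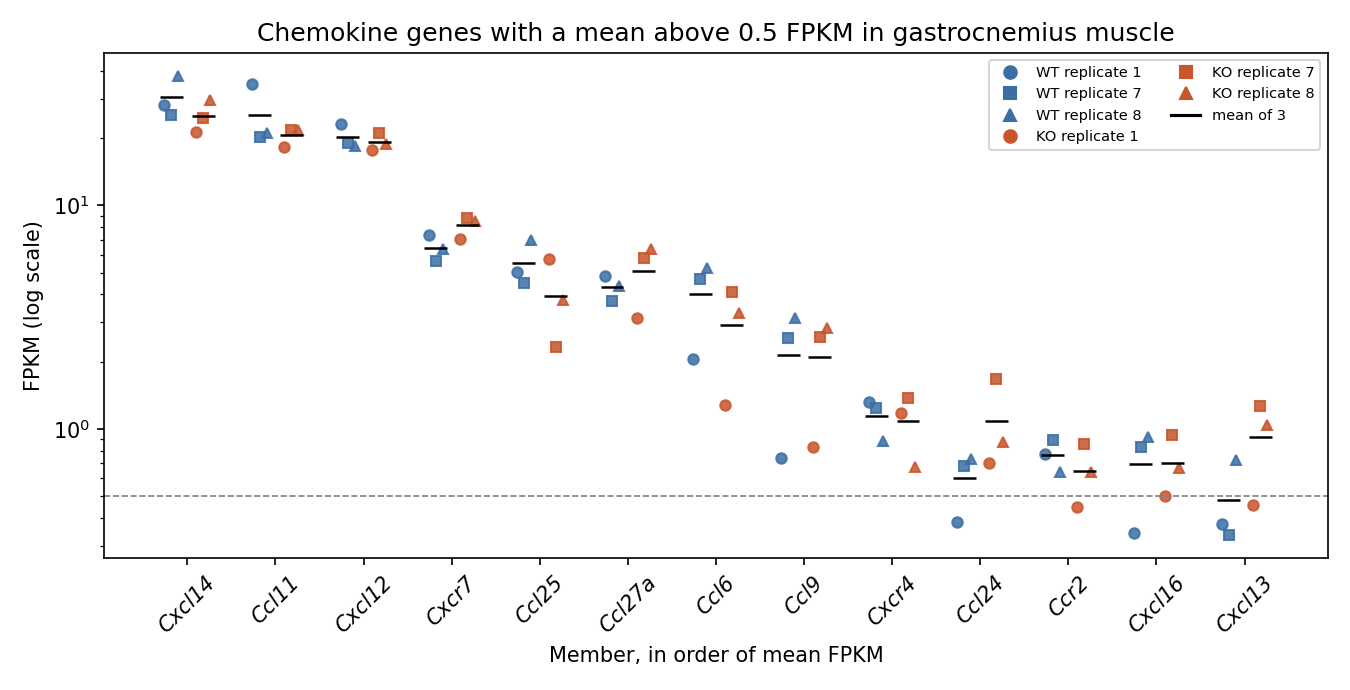
FPKM on a log scale of the 13 chemokine genes with a mean above 0.5 FPKM (dashed line), in order of their mean over 6 libraries. Each symbol is 1 library, with circles, squares and triangles for replicates 1, 7 and 8, blue for WT and orange for KO muscle, and bars mark the mean of 3. *Cxcl14*, *Ccl11* and *Cxcl12* sit above 17 FPKM in each library, and the WT and KO symbols overlap in every gene.

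The 3 highest ligands made up 66.3% to 76.7% of the summed FPKM of all 57 entries in a library. *Cxcl14*, a CXC ligand made by epithelia and connective tissue cells, lies on chromosome 13, 56288643 to 56296551, minus strand (this and the following positions are of GENCODE genes on GRCm38). In WT muscle it measured 28.2, 25.5 and 37.9 FPKM (replicates 1, 7 and 8, here and below) and in KO muscle 21.2, 24.7 and 29.5 FPKM. The lowest library was a KO and the highest a WT library, but the ranges overlapped. The means were 30.5 ± 6.55 FPKM in WT and 25.1 ± 4.15 FPKM in KO muscle (SD, n = 3). The log2 fold change was -0.27 (standard error 0.18, 95% interval -0.70 to 0.16, limma-adjusted p = 0.377). After each library was corrected for a trend on the GC content of genes, it was -0.55 (limma-adjusted p = 0.332, unadjusted p = 0.0131). With 1 library left out it ran from -0.39 without KO replicate 8 to -0.11 without WT replicate 8.

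*Ccl11*, known as eotaxin-1, draws eosinophils through CCR3 (chromosome 11, 82057823 to 82062955, plus strand). Its levels were 35.0, 20.2 and 21.1 FPKM in WT muscle and 18.2, 21.7 and 21.8 FPKM in KO muscle. WT replicate 1 stood alone at the top, and the other 5 libraries lay between 18.2 and 21.8 FPKM. The log2 fold change was -0.26 (standard error 0.22, 95% interval -0.77 to 0.25, limma-adjusted p = 0.465). It ran from -0.40 without WT replicate 7 to -0.006 without WT replicate 1, and after GC correction it turned to 0.04.

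*Cxcl12*, also called SDF-1, retains stem and progenitor cells and binds CXCR4 and CXCR7 (chromosome 6, 117168535 to 117181367, plus strand). It was at 23.2, 19.1 and 18.5 FPKM in WT muscle and 17.7, 21.2 and 18.8 FPKM in KO muscle. Of the 13 genes it varied least, with a highest library 1.31 times the lowest. The log2 fold change was -0.07 (standard error 0.13, 95% interval -0.37 to 0.23, limma-adjusted p = 0.753), and it ran from -0.14 without KO replicate 7 to 0.03 without WT replicate 1. The ranges of *Cxcl14*, *Ccl11* and *Cxcl12* over the libraries overlapped, so their order by mean is not firm.

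The receptors of *Cxcl12* differed in level. *Cxcr7*, named *Ackr3* in GENCODE, encodes an atypical receptor that removes CXCL12 (chromosome 1, 90203980 to 90216751, plus strand). It was the highest receptor, at 7.37, 5.62 and 6.40 FPKM in WT muscle and 7.06, 8.80 and 8.54 FPKM in KO muscle. KO replicates 7 and 8 were above each WT library, while KO replicate 1 was below WT replicate 1. The means were 6.46 ± 0.878 FPKM in WT and 8.13 ± 0.940 FPKM in KO muscle (SD, n = 3). The log2 fold change was 0.33 (standard error 0.15, 95% interval -0.02 to 0.67), and its limma p of 0.0585, 0.204 after adjustment over all genes, was the smallest of the 13. It ran from 0.23 without WT replicate 7 to 0.43 without WT replicate 1 and was 0.52 without both libraries numbered 1. After GC correction it was 0.37 (limma-adjusted p = 0.421, unadjusted p = 0.0406).

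*Cxcr4*, the signalling receptor of CXCL12, was lower (chromosome 1, 128588199 to 128592293, minus strand). It was at 1.31, 1.23 and 0.883 FPKM in WT muscle and 1.18, 1.38 and 0.677 FPKM in KO muscle. Replicate 8 was the lowest of each genotype, and the genotypes overlapped over nearly their whole range. The log2 fold change was -0.11 (standard error 0.30, 95% interval -0.82 to 0.60, limma-adjusted p = 0.843) and ran from -0.30 without KO replicate 7 to 0.17 without KO replicate 8.

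*Ccr2*, the receptor by which monocytes follow CCL2, was the only CC receptor above 0.5 FPKM (chromosome 9, 124101950 to 124113557, plus strand). Its levels were 0.769, 0.890 and 0.640 FPKM in WT muscle and 0.447, 0.854 and 0.643 FPKM in KO muscle. KO replicate 1 was the lowest, and the other 5 libraries overlapped. On the log2 scale the fold change was -0.24 (standard error 0.31, 95% interval -0.97 to 0.49, limma-adjusted p = 0.653), -0.43 without KO replicate 7, -0.03 without KO replicate 1, and 0.14 after GC correction. The ligands of CCR2 were lower still: *Ccl2* was at 0.290, 0.155 and 0.560 FPKM in WT muscle and 0, 0.311 and 0.378 FPKM in KO muscle. *Ccl7* lay between 0.0713 and 0.289 FPKM in all libraries and *Ccl12* between 0 and 0.465 FPKM.

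*Ccl25* and *Ccl27a*, known from thymus and gut and from skin, were measured at middle levels, and both carry a limit of annotation. The exons of *Ccl25* (ENSMUSG00000023235, chromosome 8, 4325210 to 4360020, plus strand) overlap those of *Elavl1* on the other strand, and those of *Ccl27a* (chromosome 4, 41769467 to 41774247, minus strand) overlap *Il11ra1*. *Elavl1* was at 2.98 to 4.42 FPKM and *Il11ra1* at 20.97 to 33.8 FPKM. The library kit keeps the strand, but the setting used in counting is not given in the sources used here, so reads of these pairs may not have been told apart.

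*Ccl25* was at 5.01, 4.49 and 7.03 FPKM in WT muscle and 5.74, 2.33 and 3.78 FPKM in KO muscle. KO replicates 7 and 8 were the lowest, and KO replicate 1 lay above 2 WT libraries. Its log2 fold change of -0.54 was the lowest of the 13 (standard error 0.32, 95% interval -1.28 to 0.21, limma-adjusted p = 0.320). It was -0.21 without KO replicate 7, -0.35 without WT replicate 8, -0.84 without KO replicate 1, and -0.90 without both libraries numbered 1. The other *Ccl25* entry (ENSMUSG00000055951), which GENCODE vM21 does not hold, was at 0.0283 to 0.167 FPKM and was not tested.

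For *Ccl27a* the values were 4.81, 3.75 and 4.36 FPKM in WT muscle and 3.12, 5.80 and 6.36 FPKM in KO muscle. The KO libraries held both the lowest and the 2 highest values. Its log2 fold change was 0.18 (standard error 0.26, 95% interval -0.44 to 0.80, limma-adjusted p = 0.691), -0.009 without KO replicate 8 and 0.49 without KO replicate 1. After GC correction it was -0.27, the opposite direction. The receptors named for these ligands were near the level of single fragments: *Ccr9*, the receptor of CCL25, reached at most 0.0839 FPKM, and *Ccr10*, that of CCL27, at most 0.197 FPKM.

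**Figure D2:**
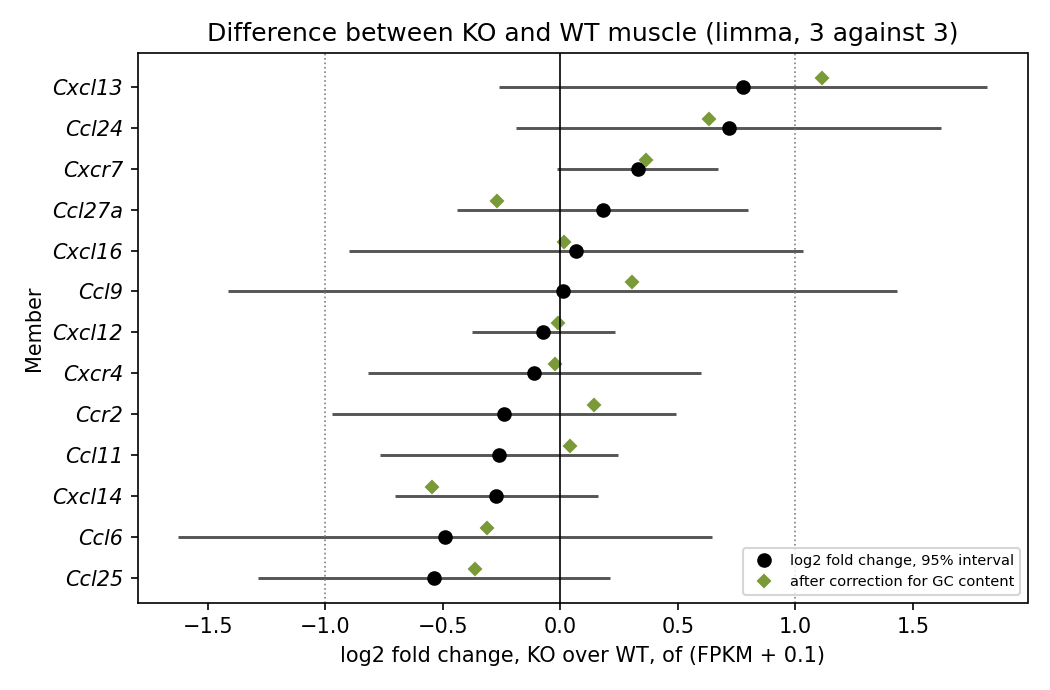
Log2 fold change of the 13 chemokine genes, KO over WT, on log2(FPKM + 0.1) (3 libraries each). Black points and bars give the limma estimate and its 95% interval, green diamonds the estimate after correction for GC content, and dotted lines a 2-fold change. Each interval includes 0, and the estimates run from -0.54 for *Ccl25* to 0.78 for *Cxcl13*.

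*Ccl6* and *Ccl9* are neighbouring genes for CC ligands that macrophages and other myeloid cells make and that act on CCR1. *Ccl6* lies on chromosome 11, 83587882 to 83593087, and *Ccl9* on the same minus strand, 83572919 to 83578636. Since they are neighbours and were both lowest in replicate 1 of each genotype, the 300 bases around each start are shown, from 250 bases before it to 50 after it (RefSeq, GRCm38.p6, 5′ to 3′ on the minus strand, *Ccl6* chr11:83593038-83593337 and *Ccl9* chr11:83578587-83578886). Capitals mark each run of at least 10 bases that both windows hold.
Ccl6: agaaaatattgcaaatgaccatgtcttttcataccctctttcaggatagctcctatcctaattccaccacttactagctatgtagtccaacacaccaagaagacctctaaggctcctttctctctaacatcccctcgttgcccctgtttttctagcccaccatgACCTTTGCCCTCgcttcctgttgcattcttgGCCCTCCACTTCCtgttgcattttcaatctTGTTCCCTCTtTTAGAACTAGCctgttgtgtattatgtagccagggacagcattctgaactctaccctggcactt
Ccl9: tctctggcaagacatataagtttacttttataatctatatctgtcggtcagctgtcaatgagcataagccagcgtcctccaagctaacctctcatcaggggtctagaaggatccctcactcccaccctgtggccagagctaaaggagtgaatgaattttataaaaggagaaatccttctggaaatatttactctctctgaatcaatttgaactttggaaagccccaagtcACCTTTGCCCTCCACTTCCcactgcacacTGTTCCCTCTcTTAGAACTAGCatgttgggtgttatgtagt
The shared runs cover 46 bases in *Ccl6* and 40 in *Ccl9*. The longest is GCCCTCCACTTCC, 13 bases. Of the 32849 other windows of this kind, 0.198% share a run of 13 bases with the *Ccl6* window and 0.186% with the *Ccl9* window, on the strand of the gene. The shared letters are a description and were not tested as binding sites.

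*Ccl6* was at 2.05, 4.68 and 5.26 FPKM in WT muscle and 1.28, 4.11 and 3.31 FPKM in KO muscle. *Ccl9* was at 0.738, 2.55 and 3.13 FPKM in WT muscle and 0.831, 2.59 and 2.84 FPKM in KO muscle. In both genes replicate 1 of each genotype was the low library, by a wide gap, and the genotypes overlapped. *Ccl6* was above *Ccl9* in each library, and KO replicate 7 was above KO replicate 8 in *Ccl6* but below it in *Ccl9*. The highest library was 4.10 times the lowest in *Ccl6* and 4.25 times in *Ccl9*.

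For *Ccl6* the log2 fold change was -0.49 (standard error 0.49, 95% interval -1.63 to 0.64, limma-adjusted p = 0.541), -0.90 without WT replicate 1 and -0.007 without KO replicate 1. That of *Ccl9* was 0.01 (standard error 0.61, 95% interval -1.41 to 1.43, limma-adjusted p = 0.993), and it ran from -0.59 without WT replicate 1 to 0.54 without KO replicate 1. After GC correction *Ccl9* was at 0.31. Their receptor gene *Ccr1* was at 0.0903, 0.273 and 0.173 FPKM in WT muscle and 0.125, 0.366 and 0.0927 FPKM in KO muscle.

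The 8 macrophage markers, all with a mean above 0.5 FPKM, summed to 20.9, 37.1 and 44.0 FPKM in WT muscle and 30.3, 68.5 and 41.1 FPKM in KO muscle. *Lyz2* alone held 13.7 to 33.8 FPKM of the sum. The sum was lowest in replicate 1 of each genotype, as were *Ccl6* and *Ccl9*, and all 8 markers had their lowest value in WT replicate 1. Of the KO libraries, however, replicate 8 was the lowest in *Adgre1* and *Mrc1*, at 0.586 and 1.69 FPKM. The sum was highest in KO replicate 7, while *Ccl6* and *Ccl9* were highest in WT replicate 8. None of the 8 passed an adjusted p of 0.05 or an unadjusted p of 0.05 between the genotypes with limma. Over all genes tested, 0.324% and 26.2% did. In value each marker was higher in KO muscle, with log2 fold changes from 0.19 for *Mrc1* to 1.13 for *Cd68*. After GC correction they ran from 0.23 for *Csf1r* to 0.93 for *Cd68*. The part of macrophage content in the levels of *Ccl6* and *Ccl9* was not tested.

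**Figure D3:**
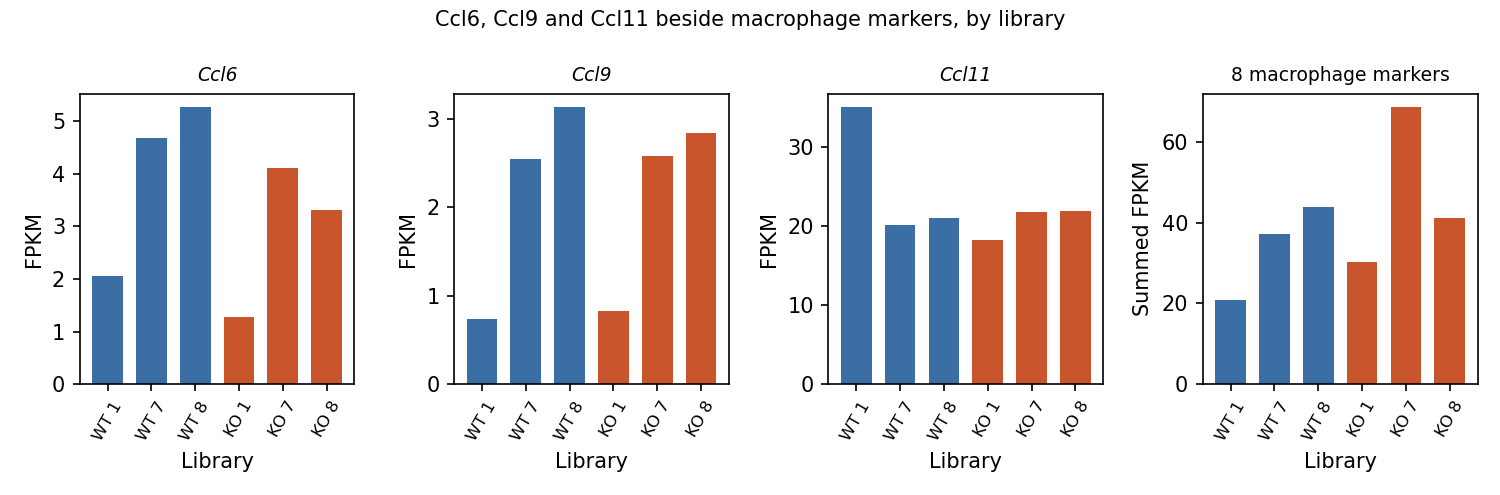
FPKM of *Ccl6*, *Ccl9* and *Ccl11* and the summed FPKM of 8 macrophage markers, 1 bar per library, blue for WT and orange for KO muscle (each panel has its own axis from 0). *Ccl6*, *Ccl9* and the marker sum are lowest in the libraries numbered 1, while *Ccl11* is highest in WT replicate 1 at 35.0 FPKM.

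The 4 lowest means of the 13 were those of *Ccr2* and of 3 ligands. *Ccl24*, eotaxin-2, shares the receptor CCR3 with CCL11 (chromosome 5, 135569937 to 135573049, minus strand). It was at 0.382, 0.686 and 0.734 FPKM in WT muscle and 0.706, 1.68 and 0.876 FPKM in KO muscle. KO replicate 7 was far above the rest, and KO replicate 1 lay inside the WT range. On the log2 scale the fold change was 0.72 (standard error 0.39, 95% interval -0.19 to 1.62, limma-adjusted p = 0.275), and it ran from 0.38 without KO replicate 7 to 0.95 without KO replicate 1. *Ccr3* itself was at 0 in WT replicate 1 and in KO replicates 1 and 8, and reached at most 0.0936 FPKM.

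*Cxcl13*, which draws B cells through CXCR5, had the largest positive difference of the 13 (chromosome 5, 95956951 to 95961068, plus strand). It was at 0.377, 0.334 and 0.725 FPKM in WT muscle and 0.458, 1.26 and 1.04 FPKM in KO muscle. KO replicates 7 and 8 were the highest, while KO replicate 1 was below WT replicate 8. Its log2 fold change was 0.78 (standard error 0.44, 95% interval -0.26 to 1.82, limma-adjusted p = 0.298), and it ran from 0.52 without KO replicate 7 to 1.16 without KO replicate 1. GC correction moved it to 1.11 (limma-adjusted p = 0.450, unadjusted p = 0.0489). *Cxcr5* was listed at 0 in 5 libraries and was at 0.0377 FPKM in WT replicate 8. The 4 B cell markers summed to at most 0.302 FPKM in any library.

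*Cxcl16* encodes a ligand that is tethered to the membrane (chromosome 11, 70453983 to 70459984, minus strand). Its levels were 0.342, 0.829 and 0.915 FPKM in WT muscle and 0.4996, 0.942 and 0.669 FPKM in KO muscle, with replicate 1 the lowest of each genotype. On the log2 scale the fold change was 0.07 (standard error 0.41, 95% interval -0.90 to 1.03, limma-adjusted p = 0.931), and it ran from -0.31 without WT replicate 1 to 0.29 without WT replicate 8. Its receptor gene *Cxcr6* reached at most 0.107 FPKM. The exons of *Cxcl16* overlap those of *Zmynd15* on the other strand, which was at 0.0137 to 0.411 FPKM.

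Across the 13 genes, a library numbered 1 held the lowest value in 9, KO replicate 1 in 6 and WT replicate 1 in 3. The highest value was in KO replicate 7 in 5 genes and in WT replicate 8 in 4. All 57 entries together summed to 112.5, 92.5 and 110.3 FPKM in WT muscle and 80.6, 101.9 and 102.6 FPKM in KO muscle, so the genotypes overlapped, with KO replicate 1 the lowest. The 18 receptors summed to 10.3, 8.81 and 8.96 FPKM in WT muscle and 9.39, 12.4 and 11.1 FPKM in KO muscle. Between 10 and 15 entries were above 0.5 FPKM in a library. KO replicate 1, which had the fewest, also had the smallest estimated depth.

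The other 44 entries, 29 ligands and 15 receptors, were at or below 0.5 FPKM in the mean and were not tested. The highest mean among them was 0.374 FPKM, that of *Ccr6*, the receptor of CCL20. *Ccr6* was at 0.425, 0.287 and 0.535 FPKM in WT muscle and 0.262, 0.369 and 0.366 FPKM in KO muscle. *Ccr6*, *Cx3cl1*, *Ccl2* and *Cxcl9* were each above 0.5 FPKM in at least 1 library.

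*Cx3cl1*, the membrane-bound ligand fractalkine, was at 0.184, 0.293 and 0.162 FPKM in WT muscle and 0.148, 0.579 and 0.498 FPKM in KO muscle. KO replicates 7 and 8 were above the WT libraries and KO replicate 1 below them. Its receptor gene *Cx3cr1* stayed between 0.0271 and 0.109 FPKM. *Cxcl9*, a ligand induced by interferon-γ, was at 0.625 FPKM in WT replicate 1 and at no more than 0.351 FPKM in the other libraries.

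Of the 44, 13 were listed at 0 in all 6 libraries, 19 were at 0 in some, and 12 were above 0 in each. Those at 0 throughout were 11 ligands, among them *Ccl20* and *Cxcl3*, and the receptors *Cxcr1* and *Ccr8*. In none of the 31 above 0 in some library did the KO libraries lie all above or all below the WT libraries. Among the 8027 genes of the table that were above 0 in some library but too low for the test, 5.89% lay higher and 3.24% lower without overlap. Levels this low rest on few fragments.

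The signalling around these genes was read from a list of 64 other genes of the pathway, of which 46 were tested. With limma, 1 passed an adjusted p of 0.05, higher in KO muscle, and at an unadjusted p under 0.05 there were 13 higher and 4 lower, while 29 did not pass. Over all genes tested, 0.324% passed the adjusted threshold, and 15.3% were higher and 10.9% lower at an unadjusted p under 0.05. The median log2 fold change of the 46 was 0.23, beside 0.01 over all genes. After correction for GC content it was 0.06, and then 4 were higher and 1 lower at an unadjusted p under 0.05. The shares of all genes given above are from the fit without this correction, and those after it were not computed.

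The gene that passed was *Gnb2*, a β subunit of the G proteins that chemokine receptors release. It was at 16.3, 19.3 and 20.5 FPKM in WT muscle and 34.4, 39.4 and 37.9 FPKM in KO muscle. Each KO library was above each WT library. Its log2 fold change was 0.99 (standard error 0.12, limma-adjusted p = 0.0410), and after GC correction 0.38 (limma-adjusted p = 0.257). It passed in 4 of 16 alternative fits, with adjusted p from 0.0334 to 0.448 over them. Of the fits with 1 library left out, it passed only in the 1 without WT replicate 8. Among the 14 tested genes of G protein signalling, 3 had higher and 1 lower values at an unadjusted p under 0.05 (15.3% and 10.9% of all genes). *Gnai2*, an inhibitory α subunit, was at 18.8, 16.5 and 19.2 FPKM in WT muscle and 24.4, 27.0 and 23.6 FPKM in KO muscle, without overlap (log2 fold change 0.46, limma-adjusted p = 0.0804, and 0.06 after GC correction). *Gnai3*, another such subunit, had a log2 fold change of -0.28 with an adjusted p of 0.186 by limma, and 0.03 after GC correction. *Plcb3*, a phospholipase C downstream of the receptors, was at 2.63 ± 0.358 FPKM in WT and 4.06 ± 0.511 FPKM in KO muscle (SD, n = 3, log2 fold change 0.61, or 0.16 after GC correction). Of 7 tested genes for receptor desensitisation, the kinase gene *Grk6* alone had an unadjusted p under 0.05 (26.2% of all genes). Its log2 fold change was 0.58, or 0.17 after GC correction.

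Among other ligands and decoy or atypical receptors, 1 of 7 tested genes had an unadjusted p under 0.05 (26.2% of all genes). This was *Mif*, a cytokine that also binds CXCR4. Its levels were 9.72, 12.998 and 16.5 FPKM in WT muscle and 26.9, 30.5 and 24.2 FPKM in KO muscle, without overlap. The log2 fold change of 1.08 (standard error 0.20) had a limma-adjusted p of 0.0667, and GC correction brought it to 0.43. It passed in 1 of 16 alternative fits, the 1 without WT replicate 8 (limma-adjusted p = 0.0415).

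Of the 6 tested genes for trimming and shedding of chemokines, 2 had higher and 2 lower values at an unadjusted p under 0.05 (15.3% and 10.9% of all genes), with no adjusted call. The proteases *Adam10* and *Adam17*, which release CXCL16 and CX3CL1 from the membrane, had the lower values. *Adam10* was at 6.66 ± 0.530 FPKM in WT and 5.27 ± 0.275 FPKM in KO muscle (SD, n = 3, log2 fold change -0.33, limma-adjusted p = 0.140). *Adam17* had a log2 fold change of -0.29 with an adjusted p of 0.181 by limma. After GC correction both were at -0.09. The higher values were those of *Mmp2*, a matrix metalloproteinase that cleaves CXCL12, and *Furin*, a proprotein convertase. *Mmp2* was at 13.6 ± 0.286 FPKM in WT and 18.5 ± 2.94 FPKM in KO muscle (SD, n = 3, log2 fold change 0.43, limma-adjusted p = 0.111). *Furin* had a log2 fold change of 0.66 with an adjusted p of 0.105 by limma, and GC correction brought these genes to 0.20 and 0.17.

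Of the 12 tested upstream inducers, 6 had higher and 1 lower values at an unadjusted p under 0.05 (15.3% and 10.9% of all genes), again with no adjusted call. The median of these 12 was 0.28 before and 0.04 after GC correction. *Nfkbia*, an inhibitor and target of NF-κB, was at 7.71 ± 0.979 FPKM in WT and 10.9 ± 1.22 FPKM in KO muscle (SD, n = 3, log2 fold change 0.50, limma-adjusted p = 0.0982), and GC correction brought it to 0.25. The NF-κB subunits *Nfkb2*, *Relb* and *Rela* had log2 fold changes of 0.69, 0.69 and 0.46, which became 0.11, 0.12 and -0.09 after GC correction. *Tnfrsf1a*, a TNF receptor, went from 0.39 to -0.01. *Ifngr1*, an interferon-γ receptor subunit, went the other way, from 0.39 (limma-adjusted p = 0.120) to 0.49 (limma-adjusted p = 0.278, unadjusted p = 0.00564). *Il1r1*, the interleukin-1 receptor, had the lower value, at 2.08, 6.65 and 7.14 FPKM in WT muscle and 2.47, 1.86 and 1.73 FPKM in KO muscle (log2 fold change -1.18, limma-adjusted p = 0.156). WT replicate 1 lay among the KO libraries. Without it the log2 fold change was -1.74 (limma-adjusted p = 0.0343), and without both libraries numbered 1 the adjusted p by limma was 0.0221, so *Il1r1* passed in these 2 of 16 alternative fits. The inducing cytokines themselves were low: *Tnf* reached at most 0.102 FPKM, *Il1b* 0.121 FPKM and *Il6* 0.156 FPKM, and *Ifng* was listed at 0 in all 6 libraries.

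**Figure D4:**
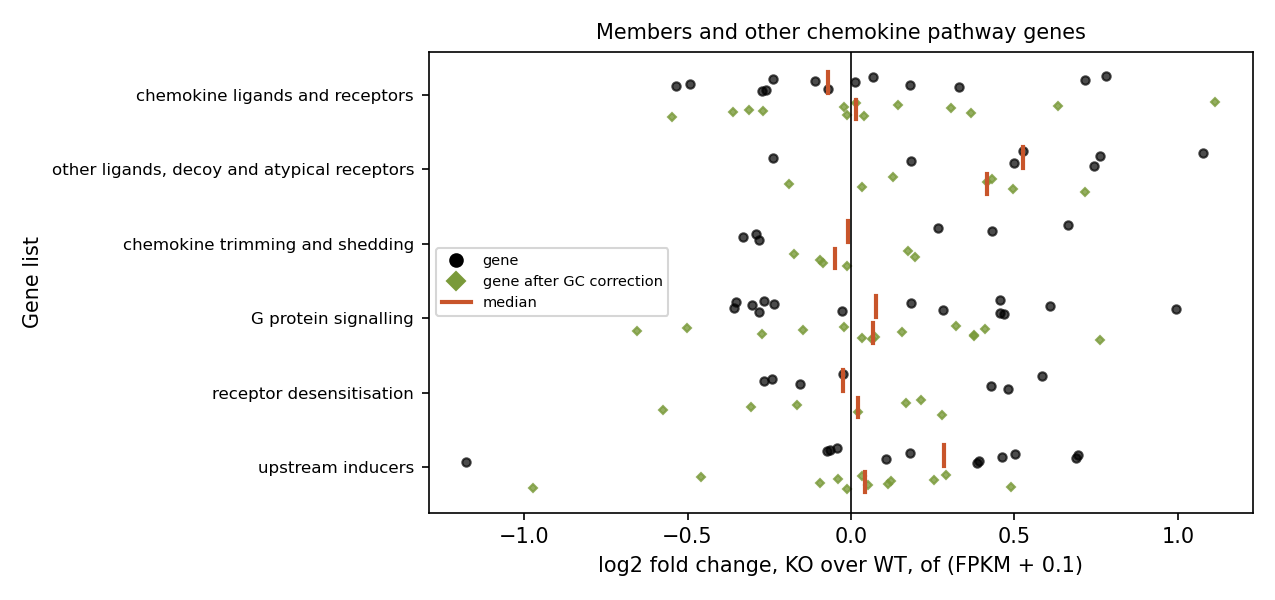
Log2 fold change, KO over WT, of the 13 chemokine genes and of the tested genes of each pathway list, on log2(FPKM + 0.1). Black points are genes, green diamonds the same genes after correction for GC content, and orange bars the medians. The inducers' median of 0.28 is at 0.04 after the correction.

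The markers of leukocytes other than macrophages were low. Of 8 T and NK cell markers 1 was above 0.5 FPKM, and *Nkg7* was listed at 0 in all libraries. Of 6 neutrophil markers 1 was above 0.5 FPKM, with *Ly6g* listed at 0. The 6 endothelial markers summed to 42.7 to 47.7 FPKM in WT and to 40.9 to 54.2 FPKM in KO muscle, and 1 of them was lower at an unadjusted p under 0.05 (10.9% of all genes). Of the 5 adipocyte markers, 3 were higher in KO muscle at an unadjusted p under 0.05 (15.3% of all genes), with no adjusted call. These were *Plin1*, *Cfd* and *Adipoq*, with log2 fold changes of 2.79, 2.11 and 1.65, or 2.28, 1.56 and 1.70 after GC correction. Their limma-adjusted p was 0.0852, 0.107 and 0.177. KO replicate 7 was the highest library in each, at 7.37, 89.0 and 40.4 FPKM. KO replicates 1 and 8 were at 1.14 and 1.37, 27.9 and 24.6, and 9.86 and 11.1 FPKM. *Adipoq* overlapped between the genotypes, with WT replicate 1 at 11.4 FPKM. *Plin1* and *Cfd* were higher without overlap (18.3% of all genes). The list summed to 233.1 to 440.1 FPKM in WT and 298.1 to 593.5 FPKM in KO muscle. *Fabp4*, which was not among the 3, alone held 216.8 to 450.4 FPKM of it. The 6 fibroblast markers, whose cells are known to make *Cxcl12*, *Cxcl14* and *Ccl11*, summed to 424.6 to 596.0 FPKM in WT and to 414.1 to 507.1 FPKM in KO muscle, and *Dcn* alone held 318.5 to 485.1 FPKM. The sum was highest in WT replicate 1, where *Ccl11* and *Cxcl12* were also highest, while *Cxcl14* was highest in WT replicate 8, where the sum was the lowest of the WT libraries. *Col1a1* of the same list was at 6.32 ± 3.06 FPKM in WT and 17.3 ± 9.92 FPKM in KO muscle (SD, n = 3, log2 fold change 1.33, limma-adjusted p = 0.173, unadjusted p = 0.0397). Its ranges overlapped, with KO replicate 8 at 6.45 FPKM and WT replicate 1 at 9.80 FPKM, and GC correction brought it to 0.83. *Pi16* and *Col3a1* were also higher (log2 fold changes 0.58 and 0.25). *Pdgfra*, *Dcn* and *Ly6a* were lower (-0.15, -0.15 and -0.04), and none of these others had an unadjusted p under 0.05. The part of fibroblast content in the levels of *Cxcl12*, *Cxcl14* and *Ccl11* was not tested.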

How the data were processed

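The authors mapped the reads of 6 libraries to GRCm38 with TopHat and deposited gene FPKM from Cufflinks, and the versions and the annotation release are not given in the sources used here. An mRNA kit that keeps strand was used. No counts were used. The depth of each library was estimated from the whole-fragment steps of low FPKM, which held within 0.15 of a fragment for 91.6% to 96.2% of values. Intervals are of the difference between the genotype means, with a limma variance that also draws on genes of similar level.

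The 3 KO libraries were compared with the 3 WT libraries in limma (version 3.58.1, R 4.3.3), after a filter on the mean of 0.5 FPKM that left 12334 genes. Values were log2(FPKM + 0.1), the variance followed a trend on expression, and there were no covariates. The test was tried on simulated data first. For GC content, each library's deviation from the mean was fitted by loess (span 0.3) and subtracted (GC known for 97.2% of tested genes). Coordinates are from GENCODE vM21, which holds 52 of the 57 entries. RefSeq start windows matched 10 of the 13 genes. Among 14983 genes above 0 throughout, any 2 libraries had at most 1 equal value.

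The members and lists were chosen with earlier results of these data known. Chemokine genes whose mean reached 0.5 FPKM are named with each value, lower ones if above 0.5 FPKM in a library or paired with a named gene, pathway genes if at an unadjusted p under 0.05, and marker genes only where their sum moves with genotype or a library. *Ccl20*, *Cxcl3*, *Cxcr1*, *Ccr8*, the low inducers, *Nkg7* and *Ly6g* were named after their values were seen. So were the named macrophage, fibroblast and adipocyte markers, the overlapping genes and the muscle genes listed at 0. Alternatives covered pseudocount, filter, scaling, replicate block, GC content, genes at 0 and leaving out libraries. Figures were drawn with matplotlib 3.10.9.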

Additional observations from a re-analysis of the deposited data

How the results depend on the processing

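No chemokine gene passed an adjusted p of 0.05 with limma in any of 16 alternative fits. Of 208 fold changes of the 13 genes under alternatives, 189 kept their direction and 19 did not, spread over 7 genes. With GC correction *Ccl11* was at 0.0402, *Ccr2* at 0.14 and *Ccl27a* at -0.27, and the same values held with the replicate block added. With a pseudocount of 1, *Ccl9* was at -0.0057. Leaving out 1 library gave -0.59 to 0.54 for *Ccl9*, -0.31 to 0.29 for *Cxcl16*, -0.14 to 0.0285 for *Cxcl12*, -0.30 to 0.17 for *Cxcr4* and -0.00875 to 0.49 for *Ccl27a*. Leaving out both libraries numbered 1, an alternative chosen after seeing the data, gave -0.12 for *Cxcl16*, -0.0594 for *Ccl9*, 0.0796 for *Ccl11* and 0.0856 for *Cxcl12*. The causes were not tested.

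Chemokine genes at an unadjusted p under 0.05 numbered 0 as reported, where 26.2% of all genes had one. They numbered 1 with the replicate block (*Ccl6*), 3 with GC correction (*Cxcl14*, *Cxcr7* and *Cxcl13*) and 2 with GC correction and block. There were 3 without both libraries numbered 1 (*Cxcr7*, *Ccl25* and *Ccl27a*), and 0 to 4 with 1 library left out. The share of all genes in these other fits was not computed, so their counts have no background and are not read as a result. The labels do not say whether the replicate numbers pair the mice, and 3 libraries of each genotype are too few to settle it. The deviations of same-numbered libraries correlated across genes at -0.11, -0.09 and -0.002 for numbers 1, 7 and 8, and the highest of the 9 correlations, 0.13, was between WT replicate 1 and KO replicate 7.

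Over all genes, 31 were higher and 9 lower at an adjusted p of 0.05. There were 7 higher and 4 lower with a pseudocount of 1, 13 higher with a filter of 0.1 FPKM, 9 without a filter, 6 with the replicate block, 6 with GC correction, 5 with both, 1 higher and 0 lower without genes listed at 0, and 11 higher without both libraries numbered 1. With 1 library left out there were 6 to 103 higher and 6 to 23 lower. Called pathway genes numbered 1 as reported (*Gnb2*) and 0 with a pseudocount of 1, without a filter, with the block, with GC correction, with both, and without genes listed at 0. With 1 library left out they numbered 0 to 2, namely *Il1r1* without WT replicate 1, *Gnb2* and *Mif* without WT replicate 8, and none without any of the other 4. Without both libraries numbered 1 the called gene was *Il1r1*. Between 9 and 17 chemokine genes passed the other level thresholds. At FPKM near 0.05, 1 fragment decides a value.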
